A study of Mus musculus with 10 samples.

Results

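The spots described here were the 10% of tissue spots richest in adult globin transcripts in 4 mouse liver tumours, 2599 spots of 26022 tissue spots that were kept. The spots were selected on the summed unique molecular identifiers (UMIs, 1 for each captured transcript) of 4 adult globin genes, Hba-a1, Hba-a2, Hbb-bs and Hbb-bt, per 10000 UMIs of the spot. In each section the top 10% of kept spots were called globin-high and the bottom 50%, 13009 spots in all, globin-low. The slides of these tumours held 34941 spots, and the whole series held 49916 spots on 10 sections of 7 tissues. Because the globins selected the spots, their own levels are given as a description, and the tests below concern all other genes.

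Frozen sections 10 micrometres thick were laid on Visium slides (10x Genomics), whose barcoded spots each capture the RNA of the several cells above them. The tumours were NEJ146, with 4 adjacent sections, and NEJ634, NEJ723 and NEJ687, with 1 section each. They grew in ABC-Myc mice (Alb-Cre+/wt::CAG-MYC+/wt on C57BL/6J). In these mice Cre driven by the albumin enhancer and promoter removes a stop cassette in cells of the hepatocyte lineage, so that human MYC is expressed there from the CAG promoter, and both sides of every comparison carry that genotype. Mice were perfused through the heart with buffer and collagenase before tumours were taken, and neither an added treatment nor the age of an animal was given in the sources used here. The other 3 tissues, NEJ638, NEJ654 and NEJ677, carry the tissue label hepatoblastoma too, but the study describes its spatial data as tumours and healthy mouse livers and names only the former 4 as tumours, so that these would be the healthy livers. Their summed oncofetal list, genes of the fetal liver and of hepatoblastoma, was at 10.8 to 103 CPM (counts per 1000000) on either side, against 3213 to 14591 CPM in the tumours. Their genotype was not given for each animal in the sources used here, and they are set beside the tumours without entering a test.

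Red cells arise from erythroblasts, which in the embryo mature mainly in the liver, among the hepatoblasts, before production moves to bone marrow and, in mice, spleen. The transcription factors GATA1, TAL1 and KLF1 switch on haem synthesis, globins and the spectrin skeleton beneath the membrane, and erythropoietin keeps the early erythroblasts alive. Erythroblasts often mature around a central macrophage, an arrangement called an erythroblastic island, and the reticulocytes and red cells that enter the blood still carry globin transcripts after the nucleus and most other transcripts are gone.

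The globin share that separated the spots differed widely between tumours. The median globin-high spot held 326, 312, 318 and 318 globin UMIs per 10000 in sections 1 to 4 of NEJ146 and 28.9, 78.6 and 182 in NEJ634, NEJ723 and NEJ687. The median globin-low spot held 17.4, 18.1, 15.1 and 14.9 in the NEJ146 sections and 1.68, 8.72 and 24.0 in the 3 single sections in the same order. The median globin-high spot of NEJ634 thus lay not far above the median globin-low spot of NEJ687, since the choice is relative to each section. Just inside and just outside the upper limit the spots held 191 and 191 per 10000 in section 1 of NEJ146, 13.6 and 13.5 in NEJ634, 55.1 and 54.8 in NEJ723, and 134 and 134 in NEJ687, so no gap marked the limit. Globin-high spots held between 35.5% (NEJ723) and 68.6% (NEJ634) of all globin UMIs of their section's kept spots. Of the globin UMIs, the ratio of alpha to beta chains was 0.533, 0.543, 0.559 and 0.481 in the globin-high spots of the NEJ146 sections and 0.613, 0.717 and 0.558 in NEJ634, NEJ723 and NEJ687. In globin-low spots it was, section by section, 0.448, 0.450, 0.460, 0.393, 0.466, 0.484 and 0.451, lower in each section. Hba-a1 and Hba-a2 are near-identical copies whose reads may have been split between them.

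Depth, tissue calls and spots off the tissue bear on these values. Each side of a section summed 4145185 to 10382993 UMIs (globin-high) or 22821835 to 64779267 UMIs (globin-low) once the globins were removed, so the globin-low side was counted more precisely. Median UMIs per spot were lower in globin-high than in globin-low spots of all NEJ146 sections (16083 against 20240 in section 1) and of NEJ723 (18869 against 20736), and higher in NEJ634 (33249 against 28430) and NEJ687 (16247 against 12019). The mitochondrial share of UMIs was higher on the globin-high side of the NEJ146 sections (7.38% to 8.78% against 6.57% to 7.0%), of NEJ634 (4.10% against 3.86%) and of NEJ687 (3.52% against 3.38%), and lower in NEJ723 (2.70% against 3.06%), and its part in the results was not tested. NEJ146 came without tissue calls, so its kept spots, 83.6% to 97.7% of each slide, rest on a UMI minimum alone. Spots called off the tissue held 18.7, 64.8 and 95.2 globin UMIs per 10000 in NEJ634, NEJ723 and NEJ687, in sums over all such spots, against 9.15, 24.0 and 84.3 in sums over the kept tissue spots. The median spot called off the tissue held 10520.5, 7079 and 6659.5 UMIs in the same 3 sections. Where the RNA of these spots came from, and its part in the tissue values, was not tested. Spot barcodes mark array positions and are the same on every slide, so shared barcodes carry no information on shared cells. Fewer cells of a type and less RNA per cell cannot be told apart in summed spots, and p-values below measure the spread between these 4 tumours.

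Globin-high spots lay together. Of the spots adjacent to a globin-high spot, 48.4% to 49.5% were themselves globin-high in the 4 NEJ146 sections, and 51.2%, 33.8% and 47.2% in NEJ634, NEJ723 and NEJ687, where about 10% of kept spots were globin-high by construction. The mean over tumours was 45.3% ± 7.84 (SD, n = 4). The largest unbroken patches held 121, 113, 117 and 94 spots in the NEJ146 sections and 45, 21 and 58 spots in NEJ634, NEJ723 and NEJ687, and 66, 56, 56, 66, 17, 50 and 57 globin-high spots of the same sections touched no other. In NEJ723 41.9% of globin-high spots lay at the margin of the kept tissue against 16.4% of all its kept spots, and in NEJ634 22.9% against 13.3%. In the NEJ146 sections and NEJ687 the share at the margin was within 4 percentage points of that of all kept spots. The same rule applied to NEJ638, NEJ654 and NEJ677 gave spots whose neighbours were globin-high in 17.1%, 11.3% and 9.83% of cases. Those tissues held little globin RNA, with upper limits of 4.25, 1.78 and 3.64 UMIs per 10000.

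**Figure D1:**
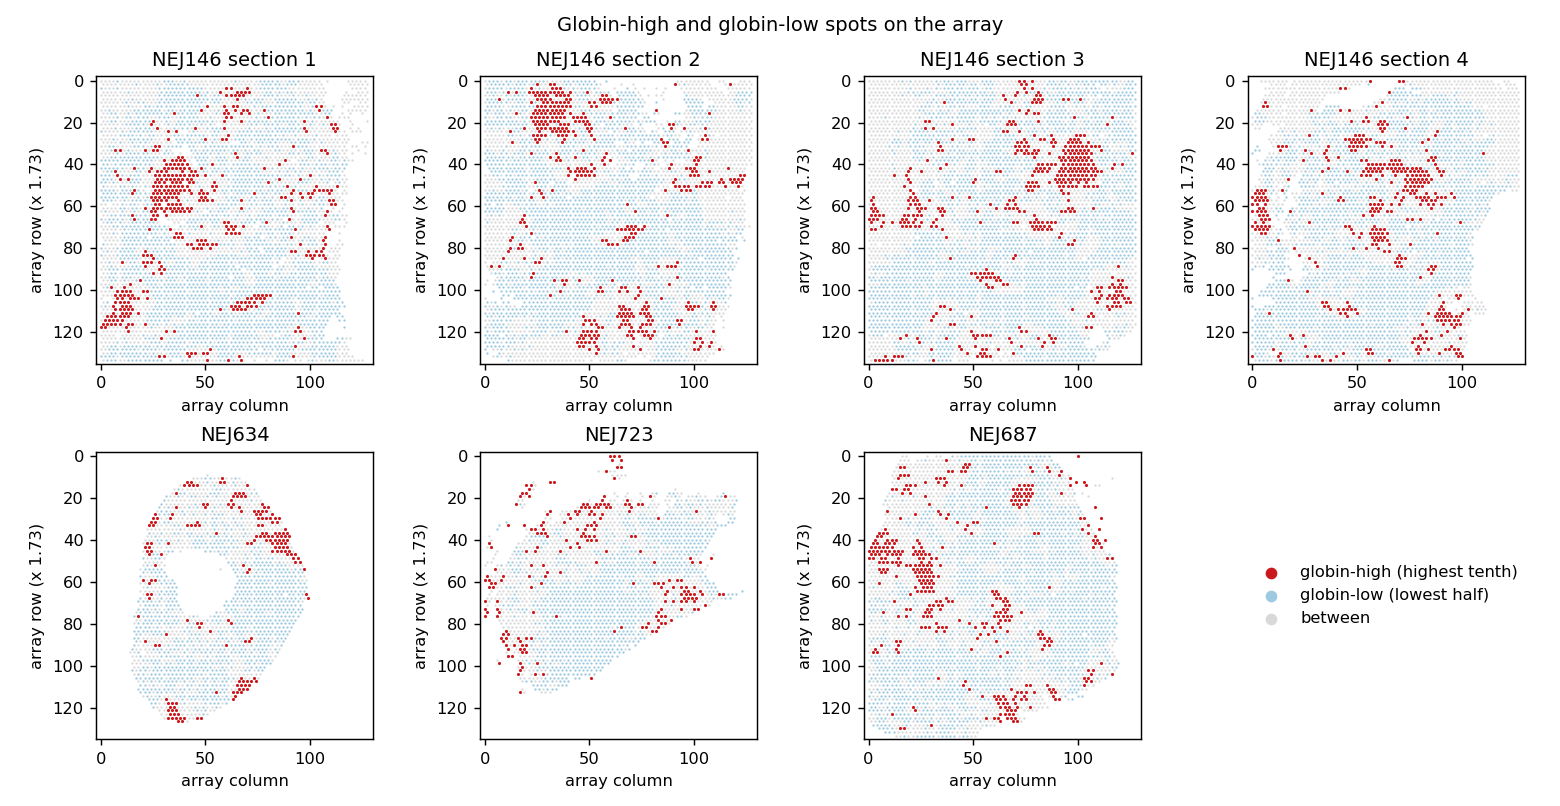
Array position (column and row) of every kept spot in the 7 tumour sections, coloured as globin-high (top 10%), globin-low (bottom 50%) or between. Globin-high spots form patches of up to 121 spots in NEJ146 and of at most 21 spots in NEJ723, where many lie along the edge of the tissue.

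Apart from the globins that defined them, the globin-high spots carried more RNA of erythroblasts, and with it, in some tumours, RNA of neutrophil and megakaryocyte genes. Of the genes listed for other cell types, 1 macrophage gene and 1 lymphoid gene were called higher and 1 oncofetal gene lower. No endothelial or stromal gene passed the test. The part of the neutrophil and megakaryocyte RNA in other values was not tested. Counts were summed over the globin-high and over the globin-low spots of each tumour and compared with edgeR's quasi-likelihood test, with the tumour as a block. Of 13908 genes tested, 155 were higher in globin-high spots at an adjusted p below 0.05 (1.11% of genes tested) and 3 were lower (0.0216%), which together is 1.14%. Of the 155 genes, 154 were higher in 4 of 4 tumours, 117 were at least 1 higher on the log2 scale and 69 at least 2. The median log2 fold change of all genes tested was 0.05, with -0.30 and 0.53 as the 5th and 95th percentiles. Without NEJ723 the count was 75 higher and 0 lower, and without NEJ687 74 higher and 4 lower, so the number of calls depends on both. Of all calls 98.1% were higher with edgeR, and 86.0% with DESeq2 (234 higher and 38 lower). The 5 erythroid lists, 73 tested genes, gave 39 of the 155 genes, other lists 8, and 108 belonged to no list.

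**Figure D2:**
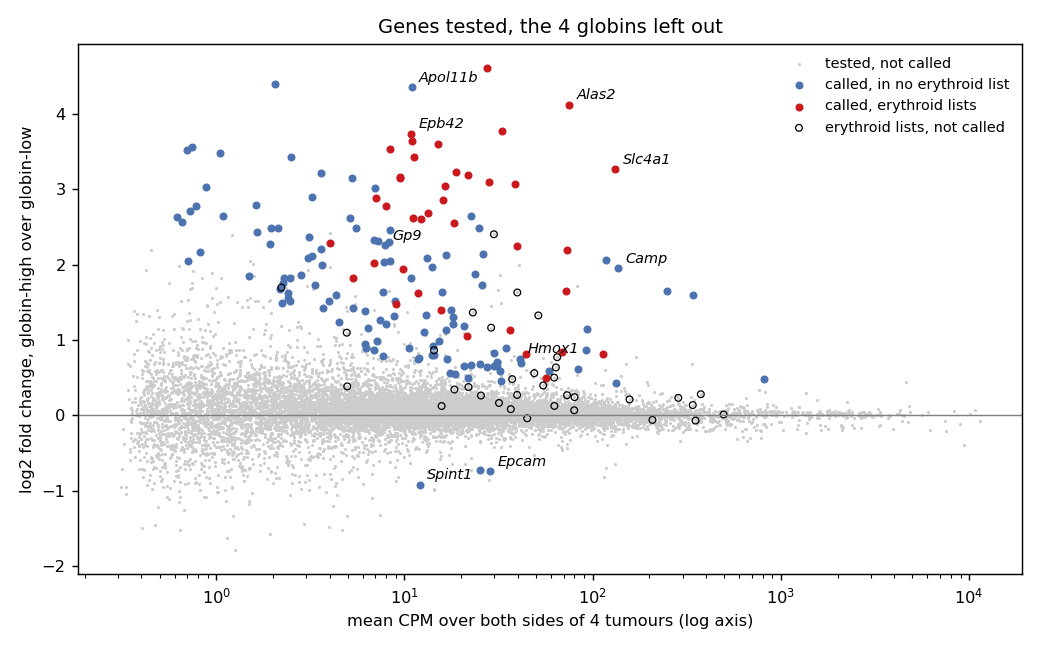
Mean level over both sides of the tumours (CPM on a log axis, x axis) against the log2 fold change of globin-high over globin-low spots (y axis) for the 13908 genes tested, with called genes and erythroid list members marked. The called genes lie almost all above 0, 155 against 3.

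Transcription factors of the erythroid lineage were among the genes that rose. Of 11 listed factors 6 were called higher, none lower, and the list's median log2 fold change was 1.70 against 0.05 for all genes tested. Gata1, which directs the erythroid and megakaryocyte programmes (GRCm38, chrX:7959260-7978071, minus strand), stood at 7.92, 4.76, 14.7 and 21.1 CPM (counts per 1e6 UMIs of that side without the globins) in the globin-high spots of NEJ146, NEJ634, NEJ723 and NEJ687. In the globin-low spots it stood at 0.740, 0.650, 1.71 and 4.73 CPM, and every globin-high value lay above every globin-low value, if only just for NEJ634 against NEJ687. The difference was 7.39-fold, with a mean log2 ratio of 2.88 ± 0.53 (SD, n = 4 tumours; adjusted p = 0.00190, edgeR). NEJ634 rests on few UMIs for this gene, 30 on the globin-high and 18 on the globin-low side.

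Tal1, a helix-loop-helix partner of GATA1, was at 13.7, 10.8, 16.2 and 42.2 CPM in globin-high and at 1.84, 1.66, 2.45 and 9.27 CPM in globin-low spots of the same tumours, without overlap of the sides (6.12-fold, adjusted p = 9.04e-04 by edgeR). Nfe2, a leucine-zipper factor of the globin locus, rose 6.43-fold (mean log2 ratio 2.65 ± 0.48). Klf1, an activator of adult beta-globin and of membrane genes, was at 14.2, 8.89, 9.41 and 29.2 CPM against 2.67, 2.24, 4.21 and 7.87 CPM. Its globin-high values all exceeded its globin-low values, and the change was 3.84-fold (adjusted p = 0.00402, edgeR). Gfi1b, a repressor needed for erythroblast maturation, rose 4.89-fold with sides that overlapped across tumours, and Lmo2, the bridging member of the GATA1 and TAL1 complex, rose 2.62-fold. Ldb1, whose product completes that complex and which many cell types express, was not called. Its log2 ratio was 0.46 in NEJ146 and between -0.03 and 0.03 in the other tumours. The GATA1 cofactor Zfpm1 was higher in 4 of 4 tumours without passing the test (log2 fold change 0.48, adjusted p = 0.160, edgeR). Megakaryocytes also express Gata1, Tal1, Nfe2 and Gfi1b, and the part of megakaryocyte RNA, described below, in these values was not tested.

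The letters that GATA1 and KLF1 are known to bind were looked for in promoters, because both factors were called. RefSeq promoters (GRCm38.p6) of 250 bases before the start were at hand for 113 of the 155 genes called higher, and both strands were searched, with no overlap between the motifs. AGATAA stood in 25 of the 113 (22.1%), in 830 of 10695 tested genes with a promoter (7.76%) and in 3090 of 27025 genes in the table (11.4%). CCNCNCCC, a CACCC-box form, stood in 72.6%, 67.0% and 48.5% of the same sets, and both motifs together in 13.3%, 4.44% and 3.89%. A match describes letters and is no sign that a factor binds. The promoters of 4 called genes that play a part below are shown over the 130 bases before the start, chosen because AGATAA lies within that stretch, and written 5′ to 3′ along the gene with both motifs, in either orientation, in capitals. They are Alas2 at chrX:150547287-150547416 (plus strand), Epor at chr9:21963577-21963706 (minus), Icam4 at chr9:21029302-21029431 (plus) and Kel at chr6:41704326-41704455 (minus).
Alas2: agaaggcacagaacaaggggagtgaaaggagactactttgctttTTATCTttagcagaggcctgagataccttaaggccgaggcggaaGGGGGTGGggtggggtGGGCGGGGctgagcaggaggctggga
Epor: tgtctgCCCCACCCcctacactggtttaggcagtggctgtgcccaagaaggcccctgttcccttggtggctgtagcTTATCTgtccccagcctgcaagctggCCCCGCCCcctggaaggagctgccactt
Icam4: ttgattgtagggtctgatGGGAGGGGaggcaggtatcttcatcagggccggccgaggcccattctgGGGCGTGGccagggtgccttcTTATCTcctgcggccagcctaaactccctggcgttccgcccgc
Kel: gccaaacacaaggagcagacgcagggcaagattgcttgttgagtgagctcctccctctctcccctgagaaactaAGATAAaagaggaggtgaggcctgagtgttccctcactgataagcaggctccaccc
The GATA motif begins 86, 54, 43 and 56 bases before the start in Alas2, Epor, Icam4 and Kel. Each of the first 3 also holds 2 CACCC-box matches that do not overlap, and Kel holds none in this stretch. Matches that overlap one already found were neither counted nor marked. Starts in the promoter table can differ somewhat from the gene limits given below.

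Of the receptors, Epor and Icam4 rose and neither transferrin receptor was called. Epor, the erythropoietin receptor (chr9:21958897-21963506, minus strand), was at 10.6, 7.94, 16.6 and 35.8 CPM in globin-high spots of NEJ146, NEJ634, NEJ723 and NEJ687 and at 2.79, 3.39, 6.18 and 11.1 CPM in globin-low spots. The globin-low value of NEJ687 exceeded the globin-high values of NEJ146 and NEJ634, while within each tumour the globin-high side was higher (3.07-fold, mean log2 ratio 1.57 ± 0.30, adjusted p = 0.00222 by edgeR). Icam4, an adhesion molecule through which erythroblasts hold island macrophages, was at 7.22, 3.97, 8.68 and 24.4 against 1.61, 1.44, 2.28 and 5.15 CPM, a 4.05-fold change. Tfrc, through which cells take up transferrin-bound iron, was at 348, 140, 210 and 567 CPM against 245, 141, 223 and 404 CPM. It was higher on the globin-high side in NEJ146 and NEJ687 only, with log2 ratios of 0.51 and 0.49, and was not called (adjusted p = 0.625, edgeR). Its relative Tfr2, a hepatocyte iron sensor as well, had log2 ratios between -0.12 and -0.02.

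Within haem synthesis the erythroid enzyme changed most. Of 18 genes for haem synthesis and iron delivery 7 were called higher, 3 without NEJ723, with a list median of 0.49. Alas2, the erythroid enzyme for the first step (chrX:150547375-150570638, plus strand), was at 259, 29.2, 68.0 and 211 CPM in the globin-high spots of NEJ146, NEJ634, NEJ723 and NEJ687 and at 6.50, 1.55, 7.14 and 18.4 CPM in the globin-low spots. The sides did not overlap, and the rise was 17.4-fold (mean log2 ratio 4.08 ± 0.92, n = 4, adjusted p = 0.00222 by edgeR). Tspo2, an erythroid relative of the mitochondrial translocator protein, rose 10.8-fold, and Slc25a37, mitoferrin, which brings iron into mitochondria, 3.14-fold. The later enzymes, which every cell uses, changed less: Urod rose 1.4-fold, Ppox 2.18-fold and Fech, which inserts the iron, 1.79-fold. Uros (log2 fold change 0.86) and Cpox (0.50) were higher in 4 of 4 tumours without passing the test, and Alad stood at 0.27. Slc25a39, a mitochondrial carrier, had log2 ratios between -0.15 and 0.10, at 442, 543, 539 and 470 CPM against 490, 506, 518 and 461 CPM.

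The red cell membrane and its skeleton gave the fullest list, with 16 of 18 genes called higher, none lower, and a median log2 fold change of 2.95. Slc4a1, band 3, the anion exchanger that anchors the skeleton, was at 163, 76.5, 175 and 508 CPM in globin-high and at 11.4, 4.62, 24.0 and 91.6 CPM in globin-low spots of NEJ146, NEJ634, NEJ723 and NEJ687. The globin-low spots of NEJ687 held a higher Slc4a1 level than the globin-high spots of NEJ634, and within tumours the log2 ratios were 3.83, 4.05, 2.87 and 2.47 (9.63-fold, adjusted p = 0.00184 by edgeR).

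The skeleton genes behaved alike in direction. Sptb, the beta chain of erythroid spectrin, rose 8.22-fold, Epb42, protein 4.2, 13.3-fold, and Ank1, the ankyrin that ties spectrin to band 3, 9.36-fold. The Rh proteins Rhag and Rhd rose 9.14-fold and 8.58-fold, and the blood group protein Kel 7.23-fold. Dmtn, the actin-bundling dematin, had the tightest ratios of the named membrane genes, 2.63, 2.43, 2.83 and 2.57 on the log2 scale (6.12-fold, adjusted p = 5.12e-04 by edgeR). Gypc, glycophorin C, rose 2.07-fold. The members that were not called were Epb41, protein 4.1, whose log2 ratio was 1.49 in NEJ146 and 0.39 to 0.73 in the others, and Xk, with -0.59 in NEJ634 and 0.27 to 1.14 elsewhere.

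**Figure D3:**
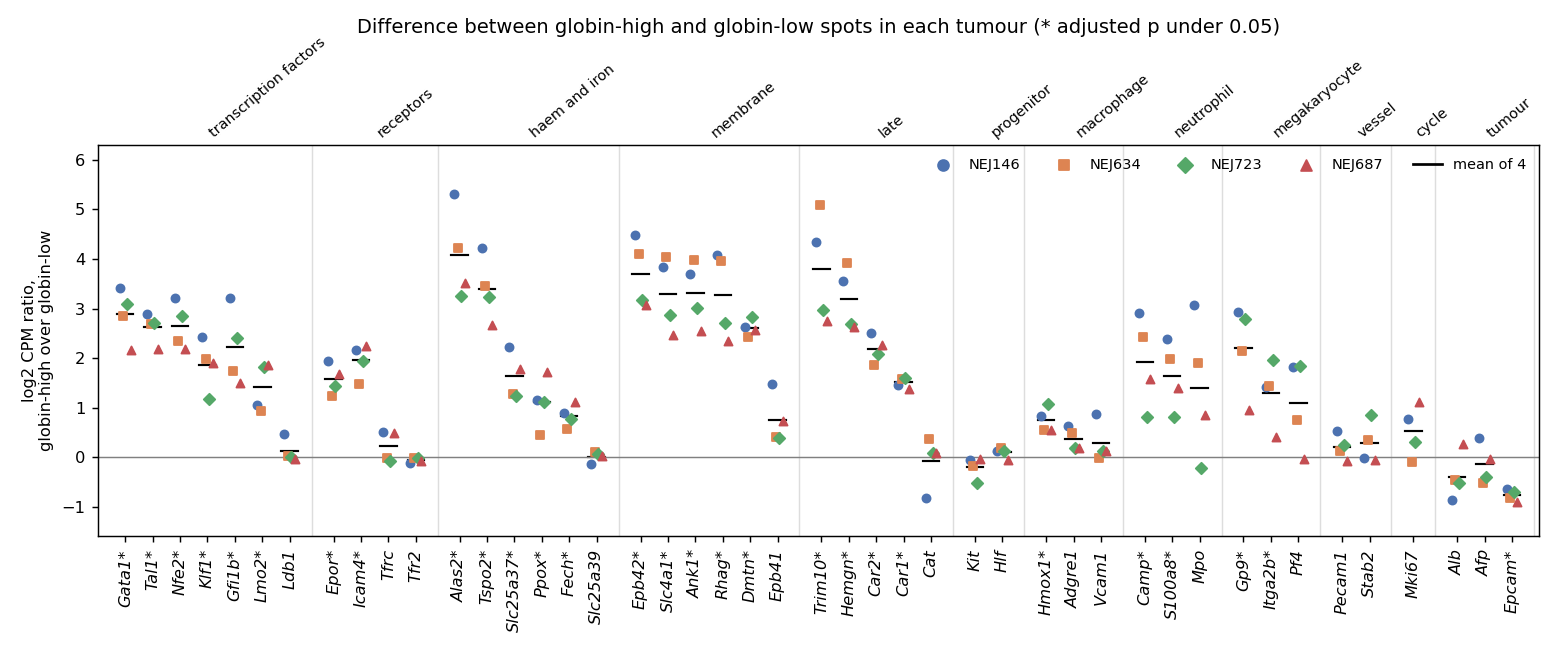
Log2 ratio of CPM in globin-high over globin-low spots (y axis) for named genes grouped by role (x axis), with a point for each of the 4 tumours, a bar at their mean and an asterisk where the adjusted p was below 0.05. Of the genes plotted, those of the membrane lie between 2 and 5 in each tumour apart from Epb41, and those of progenitors, macrophages and vessels between -0.51 and 1.07. Members of the latter lists that are not plotted, such as Myb, Marco and Gja5, exceed that range in some tumours.

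Of 22 tested genes of late erythroblasts 8 were called higher, with a median of 1.24, and 21 had an unadjusted p below 0.05 in that direction, as had 1044 of all 13908 genes tested. DESeq2 called 13, edgeR without a filter on low counts 14 of 24, and edgeR without NEJ634 13. Ahsp, the chaperone of free alpha-globin, was not analysed here. Trim10, a ubiquitin ligase of erythroid differentiation, rose 12.4-fold, Fam46c (now Tent5c), a poly(A) polymerase, 12.1-fold, Ypel4 8.96-fold and Hemgn, a GATA1 target, 8.88-fold. Car2 and Car1, carbonic anhydrases of red cells, rose 4.59-fold and 2.79-fold. Car1 differed in level between tumours while its log2 ratios, 1.47, 1.58, 1.61 and 1.38, hardly did. Bpgm, which makes the phosphoglycerate that lowers the oxygen affinity of haemoglobin, was higher in 4 of 4 tumours (2.69, 0.61, 1.21 and 1.76) and missed the threshold with an adjusted p of 0.0663 (edgeR). Isg20 did so too, with 3.98 in NEJ146 and 0.61 in NEJ634. Prdx2 and Cat, antioxidant enzymes that hepatocytes share, were not called. Prdx2 had a log2 fold change of 0.28, and Cat, at -0.82 in NEJ146 and 0.36, 0.09 and 0.09 in NEJ634, NEJ723 and NEJ687, of -0.07.

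Embryonic globins were almost absent, and no early progenitor gene passed the test. Hbb-y, the embryonic epsilon-like chain, gave 0.0290 CPM in NEJ146 and 0.150 in NEJ687 on the globin-high side and no UMI elsewhere, and was too low to test. Hbq1b, a theta globin with a near-identical copy, was at 7.02, 1.90, 1.69 and 4.94 against 0.185, 0.108, 0.263 and 0.341 CPM, a 21.1-fold change. Its globin-low values rest on few UMIs, 3 in NEJ634. It passed the filter on low counts through its globin-high side, so the size of the fold change is uncertain. Reads of its copy Hbq1a may have been shared with it. Of 7 stem and early progenitor genes none was called by edgeR or DESeq2. In edgeR 3 of the 7 were higher at an unadjusted p below 0.05, as were 1044 of all 13908 genes tested. The list's median log2 fold change was 0.27 against 0.05 for all genes tested, and 3 members were higher in 4 of 4 tumours. Kit, the receptor that erythroblasts lose early in maturation, was at 3.60, 7.62, 8.68 and 5.39 CPM against 3.77, 8.66, 12.5 and 5.60 CPM, lower in 4 of 4 tumours with a log2 fold change of -0.20 that did not pass (adjusted p = 0.760, edgeR). Myb, active in progenitors, had ratios of 2.14, 0.48, 1.24 and 1.43 on few UMIs and was not called, and Gata2 had a fold change of 0.27.

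The erythroid lists were also set against the globins. For each 1000 globin UMIs by which the sides differed, UMIs of the 18 membrane genes differed by 9.21, 46.4, 59.2 and 36.7 in NEJ146, NEJ634, NEJ723 and NEJ687. For all 5 erythroid lists the figures were 29.5, 156, 157 and 99.3. The divisor is the globin excess by which the spots were chosen. A larger excess gives a lower value unless the list UMIs rise in step with it, and the cause of the differences was not tested. The level of the 5 lists on the globin-high side, 5415, 3938, 4329 and 7701 CPM, was not lowest in NEJ146, and with 1 value per tumour no difference between tumours was tested. In NEJ638, NEJ654 and NEJ677 the same sum was 4580, 5024 and 5636 CPM on the globin-high and 4788, 5232 and 5753 CPM on the globin-low side. These values lie above the globin-high sides of NEJ634 and NEJ723, so the sum, and the figures per globin UMI, do not measure erythroblast RNA alone. The 5 lists together were 1.5, 1.28, 1.41 and 1.84 times as high on the globin-high side of NEJ146, NEJ634, NEJ723 and NEJ687, and 0.957, 0.960 and 0.980 times in NEJ638, NEJ654 and NEJ677. The membrane list was 1.01, 1.12 and 1.04 times as high on the globin-high side of the latter 3 tissues, against 7.26, 4.13, 4.22 and 4.51 times in NEJ146, NEJ634, NEJ723 and NEJ687. Gata1 gave no UMI on the globin-high side of these 3 tissues, which allows up to 0.478, 0.695 and 0.711 CPM, and Epb42 and Rhd gave none on either side.

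The membrane genes also climbed with the globin share, mostly in the upper deciles. From the lowest to the highest decile of spots, summed membrane CPM went from 65.4 to 656 in NEJ146, from 78 to 335 in NEJ634, from 115 to 626 in NEJ723 and from 288 to 1671 in NEJ687. In NEJ634 the ninth decile was still at 115, so the step lay at the end, whereas in NEJ146 the ninth was already at 422. Alas2 in NEJ146 went from 57.7 in the ninth to 259 CPM in the highest decile, and Slc4a1 from 105 to 163 CPM. Gata1 in NEJ687 climbed from 3.46 to 21.1 CPM across the deciles.

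**Figure D4:**
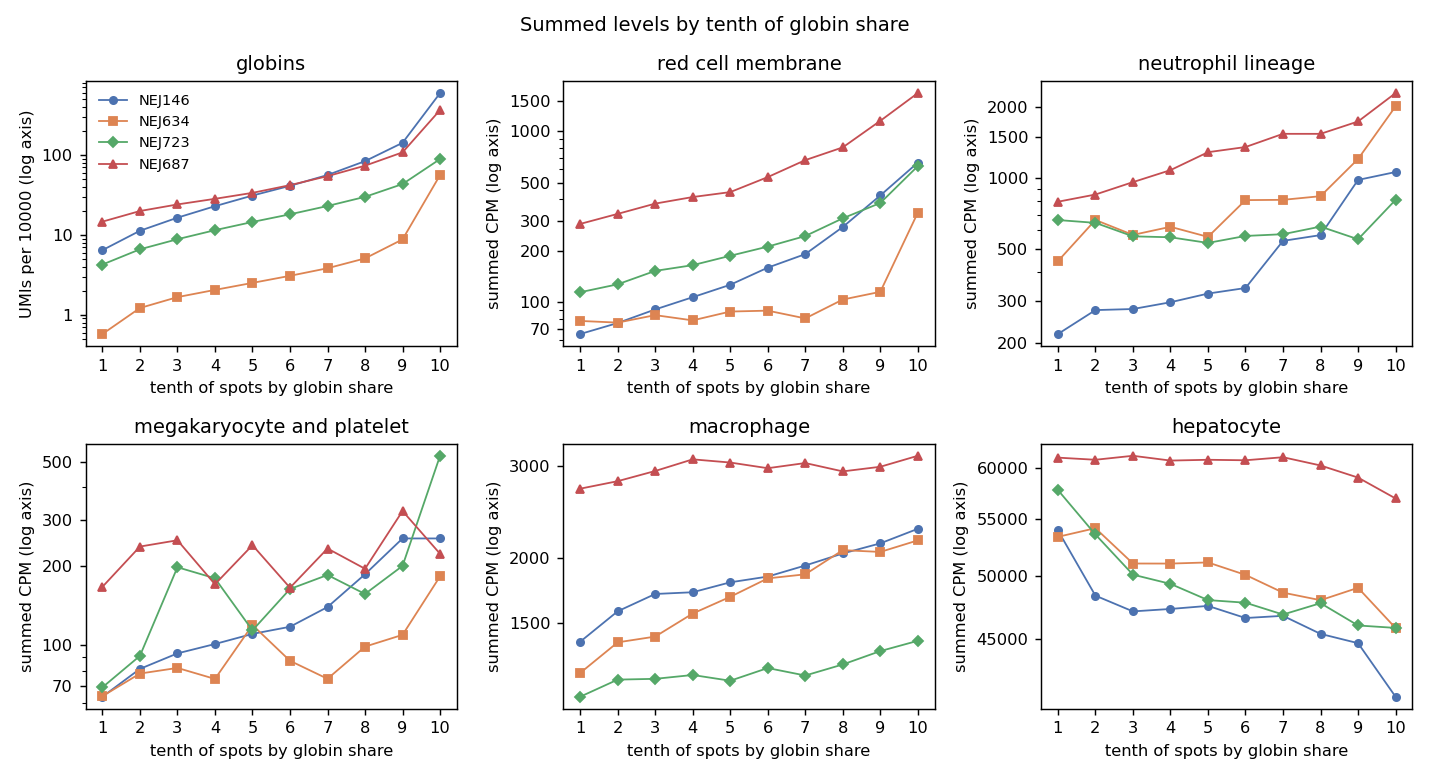
Globin UMIs per 10000 and summed CPM of 5 gene lists (y axes, log scale) in the deciles of kept spots ordered by globin share (x axis), with a line for each tumour. The membrane list climbs with globin share in each tumour, steeply at the last decile in NEJ634, and the hepatocyte list declines, least in NEJ687.

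Spots around the globin-high ones held less of the membrane list, and the rule has a part in this, since a neighbour that is globin-high itself is not counted among them. Spots that touched a globin-high spot without being one held 228, 98.8, 290 and 799 CPM of the membrane list in NEJ146, NEJ634, NEJ723 and NEJ687, against 656, 335, 626 and 1671 CPM in the globin-high spots themselves. At 4 or more steps they held 127, 80.2, 155 and 426 CPM. Adjacent spots thus remained above distant ones in each tumour, least so in NEJ634. Gata1 went from 14.7 to 5.14 CPM at 1 step in NEJ723 and to 2.09 CPM at 4 or more steps.

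**Figure D5:**
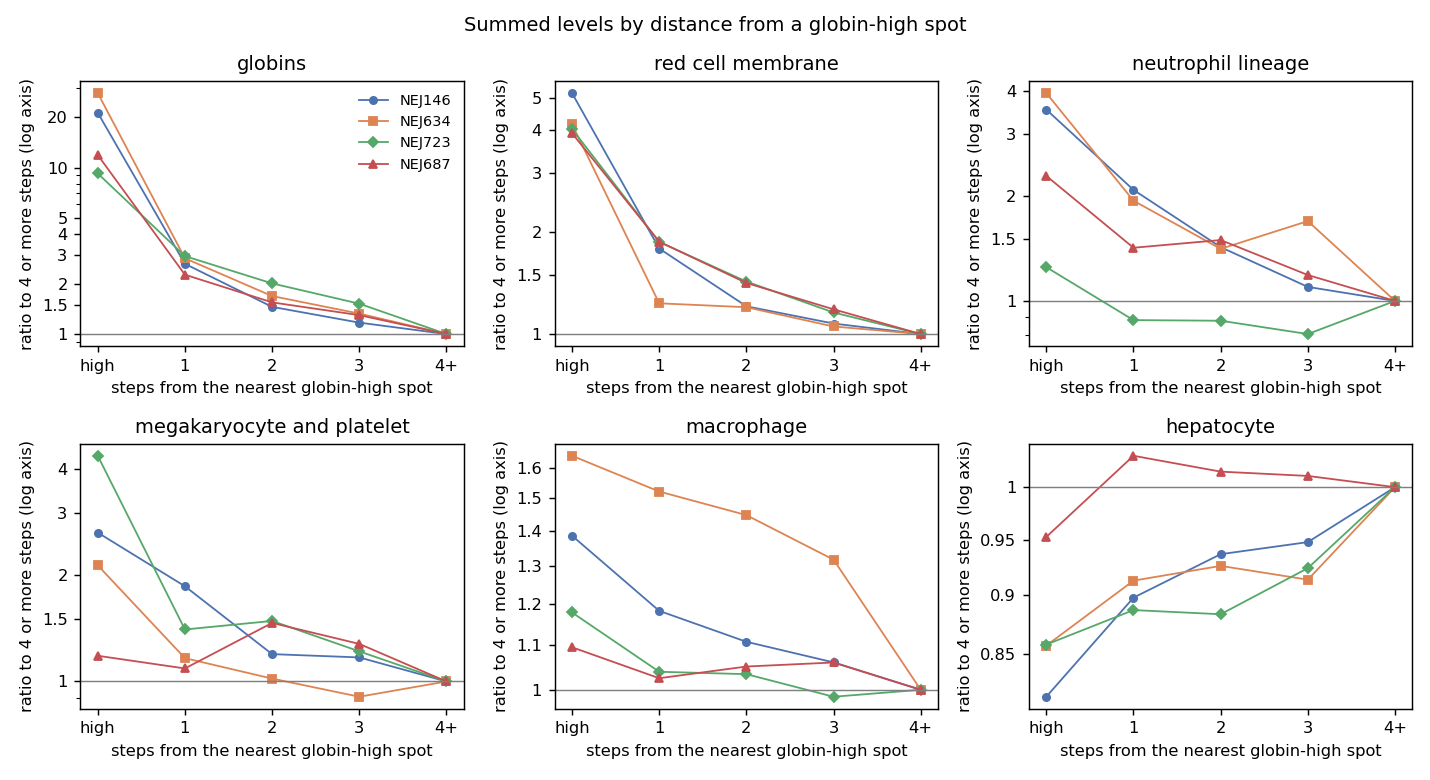
Levels of globins and 5 gene lists relative to spots 4 or more steps away (y axis, log scale) by distance in spots from the nearest globin-high spot (x axis), with a line for each tumour. Spots at 1 step or more exclude globin-high spots by definition. The membrane list lies at 4 to 5 times the distant level in globin-high spots and below 2 times at 1 step, and the macrophage list declines slowly in NEJ634.

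Of 21 macrophage genes 1 was called higher, where 1.11% of all genes tested were. The list's median log2 fold change was 0.39 against 0.05 for all genes tested. Of its members 14 were higher in 4 of 4 tumours, as were 1981 of the 13908 genes tested, and 16 had an unadjusted p below 0.05 in that direction, as had 1044 of the 13908. The summed list was 1.41, 1.49, 1.2 and 1.08 times as high on the globin-high side in NEJ146, NEJ634, NEJ723 and NEJ687. Hmox1, haem oxygenase, which breaks down haem from old red cells (chr8:75093621-75100589, plus strand), was the member called. It was at 72.3, 29.7, 48.5 and 56.3 CPM against 40.5, 20.4, 23.1 and 38.6 CPM, a 1.68-fold change with sides that overlapped across tumours (adjusted p = 0.0174, edgeR).

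Vcam1, the adhesion molecule of the central island macrophage, also made by endothelium, was at 201, 177, 318 and 290 CPM against 111, 178, 290 and 265 CPM. It was higher in NEJ146 (0.86 on the log2 scale) and within 0.13 of 0 in the others, and was not called (adjusted p = 0.621, edgeR). Adgre1, the macrophage marker F4/80, had ratios of 0.62, 0.50, 0.18 and 0.18 (adjusted p = 0.206, edgeR). Of genes of Kupffer cells, Cd5l had log2 ratios of 0.68, 1.2, 0.9 and -0.01, and Marco of 0.77, 1.46, 1.32 and -0.15. Clec4f, in liver a Kupffer cell lectin, was at 62.9, 154, 0.482 and 179 CPM against 76.9, 57.6, 0.263 and 126 CPM, lower in NEJ146, higher in NEJ634 and NEJ687 and nearly absent from NEJ723. None of these passed the test.

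No ligand of the erythroid niche and no gene of the iron hormones passed the test. Of 15 tested niche ligands none was called (1 had an unadjusted p below 0.05 higher and 1 lower; DESeq2 called none), with a median of 0.02. Epo, the gene of erythropoietin, had no UMI on either side of any tumour, which on the globin-high side allows up to 0.0870, 0.476, 0.724 and 0.449 CPM in NEJ146, NEJ634, NEJ723 and NEJ687 (3 UMIs of the total). Kitl, the ligand of KIT, had log2 ratios of 0.20, -0.44, -0.58 and 0.60. Of 8 genes of the iron axis none was called by edgeR (2 at an unadjusted p below 0.05 higher, 1 lower), and DESeq2 called 1 lower. Over all 13908 genes tested 1044 were higher and 228 lower at that unadjusted p in edgeR. Hamp, which encodes hepcidin, the liver hormone that blocks iron release, was at 241, 1745, 426 and 1076 CPM against 229, 1366, 384 and 640 CPM. It was higher in 4 of 4 tumours, most in NEJ687 (0.75), and was not called (adjusted p = 0.321, edgeR). Erfe, the hormone by which erythroblasts lower hepcidin, had log2 ratios of 2.37 in NEJ146 and 2.10 in NEJ687 but 0.08 in NEJ634 and 0.05 in NEJ723, and was not called either (adjusted p = 0.289, edgeR). Trf, transferrin, a hepatocyte product, was lower in 4 of 4 tumours (log2 fold change -0.19, adjusted p = 0.130 by edgeR).

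No blood vessel list contained a called gene by edgeR or DESeq2. Of 12 sinusoidal genes 1 had an unadjusted p below 0.05, of 15 tested general endothelial genes 2, and of 10 tested large vessel genes none, all higher. In that direction 1044 of all 13908 genes tested had such a p. For the sinusoidal, general endothelial and large vessel lists the medians follow. Their median log2 fold changes were 0.21, 0.13 and 0.39. The summed sinusoidal list was 0.95 and 0.98 times as high on the globin-high side in NEJ146 and NEJ687 but 1.39 and 1.49 times in NEJ634 and NEJ723. Stab2, a scavenger receptor of liver sinusoids, was at 39.8, 31.0, 43.2 and 46.7 CPM against 40.4, 24.3, 24.0 and 48.6 CPM, higher in NEJ634 and NEJ723 only (adjusted p = 0.703, edgeR). Pecam1, an adhesion molecule of all endothelium, was at 18.7, 18.1, 14.7 and 18.6 CPM against 13, 16.6, 12.6 and 19.6 CPM, with sides that overlapped (adjusted p = 0.666, edgeR). Vwf, typical of larger vessels, had ratios of 0.67, 0.48, 0.81 and -0.37. Gja5, of arterial endothelium, was at 2.18 in NEJ146 and between -0.58 and -0.09 elsewhere. Of 13 mural and stromal genes none was called (1 at an unadjusted p below 0.05, higher; DESeq2 called none). Acta2, smooth muscle actin, went from 1.61 in NEJ146 to -0.62 in NEJ634.

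Neutrophil and megakaryocyte genes were called too, with ratios that varied between tumours, and the differences between tumours were not tested. Of 14 neutrophil genes 3 were called higher, where 1.11% of all genes tested were, with a median of 1.52 and 13 at an unadjusted p below 0.05, as were 1044 of the 13908 genes tested in that direction. Camp, the cathelicidin of neutrophil granules, was at 128, 237, 118 and 362 CPM against 17.2, 44.3, 67.0 and 121 CPM, a 3.86-fold change (adjusted p = 0.0329, edgeR). S100a8 and S100a9, the calprotectin subunits, rose 3.15-fold and 3.01-fold. Sides overlapped for all 3 genes, and NEJ723 had the smallest ratio in each. Mpo, the myeloperoxidase of early granulocytes, had ratios of 3.07, 1.90, -0.23 and 0.86, and Elane, neutrophil elastase, of 3.03, 2.39, -0.82 and 1.17, both lower on the globin-high side of NEJ723. The summed list was 3.88, 3.51, 1.36 and 2.30 times as high on the globin-high side in NEJ146, NEJ634, NEJ723 and NEJ687. In spots called off the tissue it was at 1402, 658 and 3257 CPM in NEJ634, NEJ723 and NEJ687. On the globin-high side of these 3 tumours it was at 2021, 809 and 2301 CPM, and on the globin-low side at 575, 595 and 1001 CPM. Without a filter on low counts 6 neutrophil genes were called. No neutrophil gene was called without NEJ634, without NEJ687, against the bottom 10% of spots, or when spots at the tissue margin were left out.

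The megakaryocyte and platelet list had the opposite exception. Of its 13 genes 2 were called higher, with a median of 1.53 and 12 at an unadjusted p below 0.05, against the same shares over all genes tested (1.11%, and 1044 of 13908). DESeq2 called 6 of them, edgeR without a filter on low counts 9, and edgeR with TMM scaling, without NEJ146, or in interior spots 1. Gp9, a platelet glycoprotein, was at 12, 4.76, 23.4 and 10.9 CPM against 1.58, 1.08, 3.37 and 5.68 CPM (4.77-fold, adjusted p = 0.0256 by edgeR), and Itga2b, the platelet fibrinogen receptor chain, rose 2.46-fold. Pf4, platelet factor 4, was at 118, 71.7, 256 and 75.7 CPM against 33.7, 43.0, 71.5 and 77.9 CPM, higher in NEJ146, NEJ634 and NEJ723 and level in NEJ687 (log2 ratio -0.04). Ppbp behaved likewise, with 2.58, 2, 2.89 and -0.27. The summed list was 2.91, 2.19, 4.04 and 1.04 times as high on the globin-high side. Without NEJ687 7 of these genes were called, and without NEJ634 or without NEJ723 none was. Of 10 tested lymphoid genes Cd79a, of B cells, was called (2.81-fold, at 0.505 to 5.55 CPM), and it was not called once any 1 of the tumours was left out, while Ighm, the IgM heavy chain, had ratios of 0.61, -0.32, -0.31 and 0.43. Of 6 basophil and mast cell genes 2 were high enough to test, and neither tool called them (0 at an unadjusted p below 0.05).

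No proliferation gene of the lists passed the test, and differences between tumours were not tested. Of 16 mitosis and 16 DNA replication genes none was called by edgeR or DESeq2. In edgeR 4 and 5 were higher at an unadjusted p below 0.05, as were 1044 of all 13908 genes tested. The summed mitosis list was 1.33, 0.93, 1.11 and 1.43 times as high on the globin-high side in NEJ146, NEJ634, NEJ723 and NEJ687. The DNA replication list was 1.28, 0.95, 1.06 and 1.33 times as high. All 16 members of each list were higher in NEJ146 and in NEJ687. Mki67, a marker of cycling cells, was at 117, 160, 184 and 197 CPM against 68.4, 173, 148 and 90.6 CPM. It was higher in NEJ146, NEJ723 and NEJ687 (log2 ratios 0.77, 0.31 and 1.12) and not in NEJ634 (-0.11), without passing the test (adjusted p = 0.364, edgeR). Outside these lists, and named after their values were seen, E2f2, a factor with a known part in erythroblast maturation, rose 3.68-fold, and the phosphatase gene Cdc25b 2.33-fold. Of 11 genes of the hypoxia response none was called by edgeR or DESeq2 (1 at an unadjusted p below 0.05, lower), with Ldha, lactate dehydrogenase, at log2 ratios between -0.08 and 0.03.

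Of the hepatocyte and tumour cell genes few were called. Of 15 hepatocyte genes none was called by edgeR, and DESeq2 called 1 lower. In edgeR 4 of the 15 were lower at an unadjusted p below 0.05, as were 228 of all 13908 genes tested. The summed list was 0.83, 0.88, 0.88 and 0.94 times as high on the globin-high side in NEJ146, NEJ634, NEJ723 and NEJ687. Alb, albumin, was at 6234, 10607, 6217 and 9370 CPM against 11415, 14562, 8936 and 7810 CPM, lower in NEJ146, NEJ634 and NEJ723 and higher in NEJ687 (adjusted p = 0.486, edgeR). Afp, the fetal albumin relative that hepatoblastomas make, was at 2277, 3385, 2679 and 4068 CPM against 1734, 4869, 3545 and 4147 CPM. It was higher in NEJ146 only, and was not called (adjusted p = 0.862, edgeR).

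The 3 genes that edgeR called lower were Epcam, Spint1 and Cldn6, where DESeq2 called 38 and edgeR against the bottom 10% of spots 0. Epcam, an adhesion molecule of hepatoblasts and bile duct cells (chr17:87635979-87651129, plus strand), was at 5.63, 38.6, 39.3 and 1.05 CPM in globin-high spots against 8.80, 68.9, 64.1 and 2.08 CPM in globin-low spots. Its level was low in NEJ146 and NEJ687 and high in the other tumours, and the log2 ratios were -0.64, -0.83, -0.70 and -0.90 (adjusted p = 0.00828, edgeR). The ratio of NEJ687 rests on few UMIs, since 3 UMIs make 0.449 CPM on its globin-high side. In section 4 of NEJ146 the log2 ratio was 0.023, against -0.85 to -0.71 in its other sections. Spint1, a protease inhibitor of epithelia, and Cldn6, a claudin of fetal epithelia, fell by 0.92 and 0.72 on the log2 scale. Krt19, a bile duct keratin, was lower in 4 of 4 tumours (-1.23, -0.55, -1.74 and -0.90) and missed the threshold (adjusted p = 0.0614, edgeR). Of the 4 bile duct genes edgeR called none and DESeq2 2, lower. In edgeR 3 of the 4 were lower at an unadjusted p below 0.05, as were 228 of all 13908 genes tested. Without NEJ723 none of Epcam, Spint1 and Cldn6 was called.

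Of the 108 called genes outside the lists, the leading ones by fold change at a mean of at least 5 CPM were Apol11b and Apol8, of the apolipoprotein L family, Samd11, Cldn13, Btnl10, Rgcc, Rsad2, an interferon-induced antiviral gene, Slc38a5, an amino acid transporter, Cdr2 and Slc14a1, the red cell urea transporter. Their fold changes ran from 20.5 (Apol11b) to 4.98 (Slc14a1). Apol11b was at 32.7, 1.75, 3.38 and 44.6 CPM against 0.806, 0, 0.482 and 4.01 CPM, so its ratio in NEJ634 rests on no UMI on the globin-low side. It passed the filter on low counts through its globin-high side, so its fold change and its place as the largest are uncertain. Aqp1, a water channel of red cells and endothelium, rose 2.22-fold, Blvrb, a red cell biliverdin reductase, 1.82-fold, and Bcl2l1, which protects erythroblasts from cell death, 1.59-fold.

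Among the smallest called changes was Eif2ak1, the kinase by which haem shortage halts translation in erythroid cells. It was at 29.9, 34.6, 36.4 and 49.0 CPM against 19.9, 27.1, 26.5 and 36.7 CPM, higher in 4 of 4 tumours by 1.37-fold with sides that overlapped (adjusted p = 0.0380, edgeR). Of called genes in no list, named after their values were seen, Ppp1r15a, a phosphatase subunit that reverses such a halt, was at 37.0, 19.4, 35.5 and 66.5 CPM against 8.53, 7.72, 12.4 and 19.2 CPM, without overlap, and rose 3.31-fold (adjusted p = 0.00178, edgeR). Ddit3 and Trib3, picked in the same way, rose 2.19-fold and 2.16-fold. The other called genes with small changes were Wfdc17, Tmsb4x, Gpcpd1, Cpeb4, Fryl and Slc25a51, from 1.34-fold to 1.5-fold.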

How the data were processed

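Per the labels and the study's methods, the authors aligned Visium reads and deposited UMI counts per gene and spot, not normalized. The submitters' processing notes name Cell Ranger 6.0 for NEJ146 and Space Ranger 1.3 with mm10 for the other sections, while the study's methods name an earlier Space Ranger for all, a difference that could not be settled here. Spots called tissue with at least 2000 UMIs were kept, and in NEJ146, without deposited positions, spots with at least 8000 UMIs, placed by the array layout of the other slides. UMIs of Hba-a1, Hba-a2, Hbb-bs and Hbb-bt per 10000 ranked the spots of each section. Counts were summed per side and tumour (4 sections for NEJ146), since spots are not replicates, and compared with edgeR 4.0.16 in R 4.3.3 (glmQLFit, glmQLFTest). The tumour was a block, the library size was all UMIs without the globins, genes were filtered with filterByExpr, and Benjamini-Hochberg adjustment ran over 13908 genes with a threshold of 0.05. An exact sign-flip test over 4 tumours cannot go below p = 0.125 and was not used. The fit was tested on simulated data. Limits for a count of 0 use 3 UMIs, cover counting error only, and stand per tumour and side.

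The members, the 24 gene lists (301 of 302 genes in the files) and the tests were chosen with earlier results of these data known. Named genes were a fixed set of 21, up to 4 called and 2 uncalled members of each list, by fold change and by level, and the 10 largest and 10 smallest called changes outside the lists at a mean of at least 5 CPM with 1 direction in the 4 tumours. Chosen after their values were seen were Lmo2, Urod, Fech, Uros, Cpox, Alad, Sptb, Ank1, Rhag, Rhd, Kel, Dmtn, Gypc, Hemgn, Car2, Bpgm, Isg20, Hbb-y, Hbq1a, Myb, Gata2, Marco, Clec4f, Epo, Kitl, Erfe, Gja5, Acta2, Elane, Ppbp, E2f2, Cdc25b, Krt19, Aqp1, Blvrb, Bcl2l1, Ppp1r15a, Ddit3 and Trib3. Some genes that the rule names are not reported here. Gene limits came from the GENCODE annotation of GRCm38 and promoters from RefSeq. The alternatives were another scaling (TMM), DESeq2 1.42.0, no filter on low counts, no tumour block, each tumour or NEJ146 section left out, the NEJ146 sections alone, other choices of high, low and kept spots, and ranking within depth. Spatial images were not used here.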

Additional observations from a re-analysis of the deposited data

Results flagged for a closer look

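Over 97 named genes, the spread of the log2 ratio of globin-high over globin-low spots was looked at in the 4 tumours and in the 4 NEJ146 sections, 194 groups of 4, in each of which chance sets a sample apart about 1 time in 20. In 9 of them 1 value lay far from the other 3, where chance would give about 9.7. Among tumours, NEJ146 stood apart for Vcam1, at 0.86 against -0.01 to 0.13 in the others, and for Ldb1, at 0.46 against -0.03 to 0.03. NEJ723 stood apart for the sinusoidal gene Stab1, at 0.26 against -0.14 to -0.08, and NEJ687 for the glycolysis gene Pgk1, at -0.27 against -0.01 to 0.01.

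Among NEJ146 sections, section 2 stood apart for the collagen gene Col3a1 (0.065 against 0.39 to 0.44), the mitosis gene Birc5 (0.47 against 0.27 to 0.30) and Pgk1 (0.12 against -0.05 to -0.03). Section 4 stood apart for Tfrc (0.43 against 0.52 to 0.54) and Epcam (0.023 against -0.85 to -0.71).

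For 5 named genes all 4 NEJ146 sections moved one way and the other tumours the opposite way, a difference that was not tested. How many genes chance would split in this way was not worked out, and several of the values lie close to 0. Afp stood at 0.39 in NEJ146 and between -0.52 and -0.03 in NEJ634, NEJ723 and NEJ687, Egfl7, a general endothelial gene, at 0.13 against -0.05 to -0.01, and Ephb4, a venous receptor, at 0.075 against -0.32 to -0.14. Slc25a39 stood at -0.15 against 0.03 to 0.10, and Cat at -0.82 against 0.09 to 0.36.

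Spots called off the tissue, which entered no comparison, held 18.7 globin UMIs per 10000 in NEJ634, 64.8 in NEJ723 and 95.2 in NEJ687, in sums over all such spots. The kept tissue spots of the same sections, summed alike, held 9.15, 24.0 and 84.3, so the excess was small in NEJ687.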

How the results depend on the processing

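Of the 66 named genes that were called, none changed sign in the 20 alternatives. Since 154 of the 155 genes called higher were higher in 4 of 4 tumours, a change of sign was unlikely from the start. Without a tumour block all 66 lost their call. Of those still tested, 29 lost it against the bottom 10% of spots and 15 in interior spots. Leaving out a tumour cost 26 their call without NEJ687, 25 without NEJ723, 16 without NEJ634 and 12 without NEJ146. The 155 higher and 3 lower calls became 234 and 38 with DESeq2, 292 and 17 without a filter on low counts, 65 and 0 against the bottom 10% of spots, and 3639 and 2029 within the NEJ146 sections, where sections of 1 tumour replace tumours as replicates. TMM scaling gave 5 lower calls and interior spots 1. Without a tumour block the calls fell to 0 and 0 (265 genes at an unadjusted p below 0.05), erythroid lists included. Leaving out a tumour gave 74 to 168 higher and 0 to 9 lower calls and 32 to 46 in the erythroid lists: 142 and 9 without NEJ146, 168 and 4 without NEJ634, 75 and 0 without NEJ723, and 74 and 4 without NEJ687. Leaving out an NEJ146 section gave 154 to 158 and 2 to 3. The erythroid count, 39, was 65 within the NEJ146 sections. The top 5% gave 36.0% adjacent globin-high spots in place of 45.3%, where about 5% in place of 10% of kept spots were globin-high by construction. The share was lower in each tumour section, in NEJ723 at 18.7% in place of 33.8%. NEJ146 tissue chosen by mitochondrial share, an alternative added after seeing the data, gave 170 and 3. Within the NEJ146 sections, genes not called over the tumours were called in the other direction for Afp (0.41), Slc25a39 (-0.14), Clec4f (-0.28), Clec4g (-0.48), Dnase1l3 (-0.45) and Dcn (-0.77), the cause of which was not tested. The comparison was paired within tumours by that block. A pairing by replicate number was not made, since these numbers mark sections of NEJ146 alone. Depth limits genes near 1 CPM, since the globin-high side of NEJ723 or NEJ634 then holds only a few UMIs. The tissue area of NEJ146, set by a UMI minimum, and the 1 section of each other tumour limit the rest.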
